A study of Ovis aries with 12 samples.

Results

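The genes described here build the route by which cells show peptides on MHC molecules: B2M, TAP1, TAP2, TAPBP, PSMB8, PSMB9, PSMB10, NLRC5, CD74 and CIITA. They were read in bulk RNA-seq of sheep embryos of 2 breeds at 2 ages. Of the 10 names, 9 were found by gene name among the 26247 genes of the deposited table. TAP2 was not found under that name. An entry described as transporter 2 of the ATP binding cassette subfamily B, which RefSeq names TAP2, is given beside the 9 genes and not counted among them. The set was chosen from measured values of B2M, which differed between the breeds at day 16, so that comparison is described below with no test for any of the 9 genes. Whether the other 9 names were also taken for their values is not recorded.

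The 4 groups, of 3 libraries each, carry no engineered allele and no treatment in the labels. They are Hulunbuir Short-tail sheep embryos at day 25, Ujumqin sheep embryos at day 25, Hulunbuir embryos at day 16 and Ujumqin embryos at day 16. In the design text the Hulunbuir breed is the experimental group and the Ujumqin breed, spelled Wuzhumuqin there, the control. The embryos were dissociated into cells with enzymes before RNA was taken, but each library is a bulk sample. The labels do not say whether a library is 1 embryo or several, nor whether membranes were included, and the p-values below reflect library-to-library spread, which may be partly technical.

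MHC class I molecules consist of a heavy chain and the light chain beta-2-microglobulin, encoded by B2M. The immunoproteasome cuts proteins into peptides, the TAP transporter carries the peptides into the endoplasmic reticulum, and tapasin helps to load them. Class II molecules follow another route, guided by the invariant chain CD74, and are largely made by immune cells. Preimplantation and trophoblast cells of several mammals are known for low class I levels, and ruminant trophoblast secretes interferon tau around implantation.

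The libraries held 30464606 to 55455815 counts. Day 16 libraries of one group differed far more than day 25 libraries did, with a biological coefficient of variation of 43.8% at day 16 and 18.1% at day 25. A gene was tested where 3 or more of the 12 libraries reached 1 FPKM, which 14595 genes did, among them 7 of the 9. NLRC5 and CIITA did not pass. Levels below are FPKM as deposited, fragments scaled to gene length and library size, whereas log2 changes come from edgeR on counts scaled by TMM. The scales differ: on log2(FPKM + 1) the median gene was 0.29 higher in Hulunbuir than in Ujumqin embryos at day 25. Fewer cells of a type and less RNA per cell cannot be told apart in bulk libraries.

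**Figure D1:**
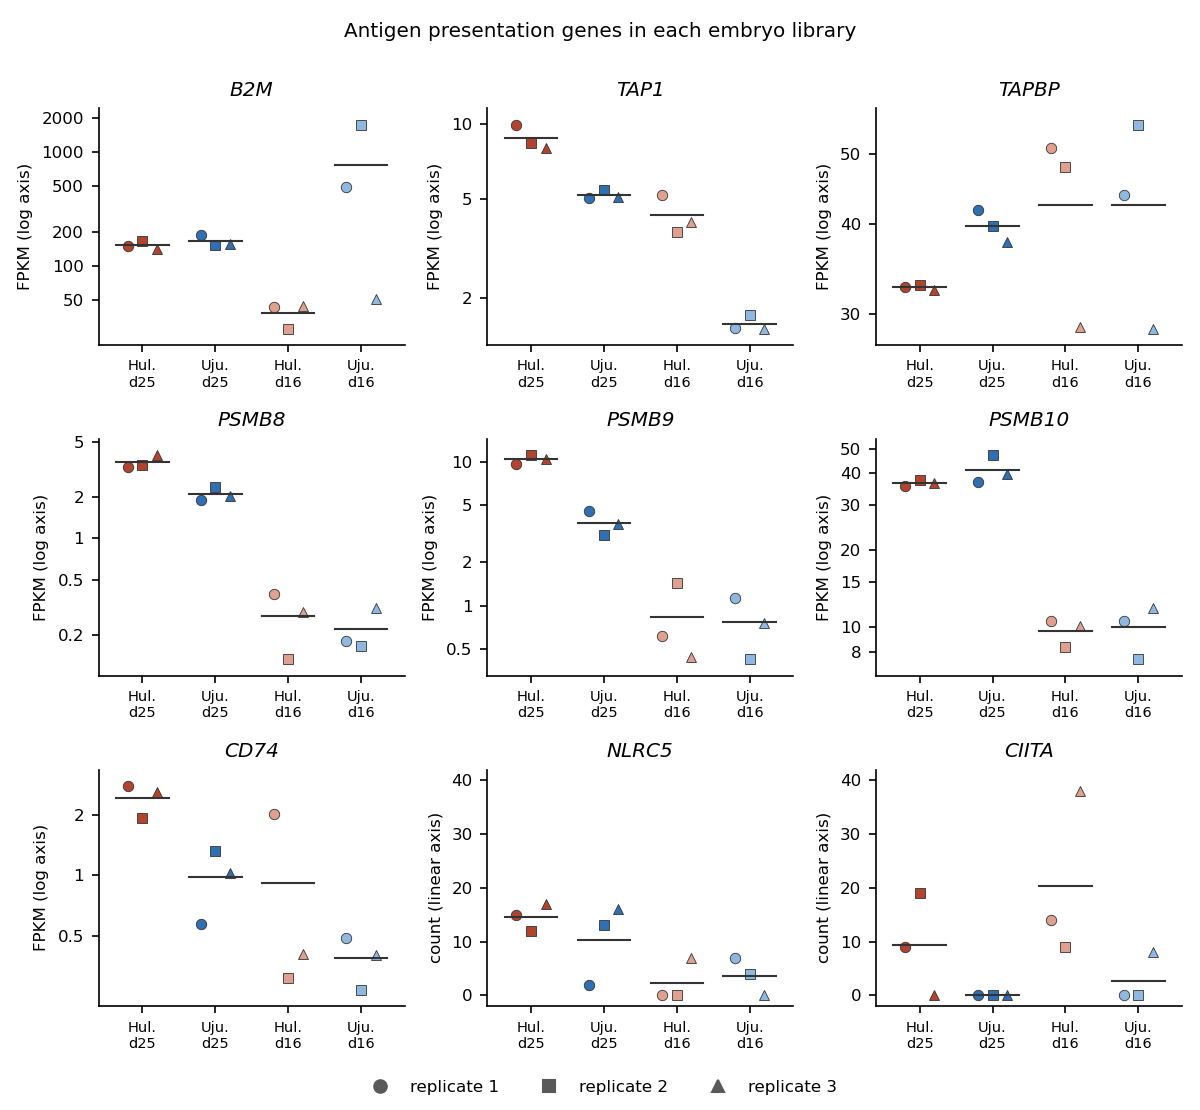
Levels of the 9 genes in each library, with Hulunbuir (Hul.) and Ujumqin (Uju.) embryos at day 25 (d25) and day 16 (d16) from left to right; the y axis is FPKM on a log scale for 7 genes and the raw count on a linear scale for NLRC5 and CIITA. Symbols mark replicates 1 to 3 and lines mark group means. B2M stood at 494 and 1756.5 FPKM in Ujumqin replicates 1 and 2 at day 16, whereas PSMB8, PSMB9 and PSMB10 were higher at day 25 than at day 16 in both breeds.

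B2M was the most abundant gene of the set at day 25 and, of the 7 genes that passed the filter, the most uneven within a group at day 16. The gene, ENSOARG00000003782, lies at chr7:99939442-99944153 on the plus strand of Oar_v3.1. In Hulunbuir day 25 embryos B2M stood at 149, 164 and 140.0 FPKM, and in Ujumqin day 25 embryos at 186, 152 and 154.5 FPKM. In Hulunbuir day 16 embryos it stood at 43.2, 27.9 and 43.8 FPKM, and in Ujumqin day 16 embryos at 494, 1756.5 and 50.9 FPKM. The day 25 groups overlapped, whereas at day 16 all 3 Hulunbuir libraries lay below all 3 Ujumqin libraries.

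The day 16 difference of B2M rests on a wide group. The Ujumqin day 16 libraries spanned 34.5-fold, from 1068 counts in replicate 3 to 34073 counts in replicate 2, and replicate 1 had 9367. B2M averaged 38.3 ± 8.97 FPKM in Hulunbuir and 767 ± 885 FPKM in Ujumqin day 16 embryos (SD, n = 3 each). The lowest Ujumqin library stood at 50.9 FPKM, close to the highest Hulunbuir library at 43.8 FPKM. The log2 change, Hulunbuir minus Ujumqin, was -4.46 ± 0.90 (SE), and -2.93 without Ujumqin replicate 2. This contrast chose the set, so no p is given.

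Between ages the B2M values differed in opposite directions in the breeds, given again with no test because the day 16 libraries chose the gene. In Hulunbuir embryos the log2 change, day 25 minus day 16, was 1.84 ± 0.81 (SE), with all 3 day 25 libraries above all 3 day 16 libraries. In Ujumqin embryos it was -2.13 ± 0.81 (SE), with overlapping libraries, and -0.61 without day 16 replicate 2. At day 25 the breeds did not differ beyond the shared error, with a log2 change of -0.49 ± 0.78 (SE) and an adjusted p of 0.707 by the quasi-likelihood F test of edgeR, adjusted by Benjamini and Hochberg's method over all tested genes.

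The class I heavy chain that could be read was also lower in Hulunbuir day 16 embryos, but without the wide Ujumqin spread of B2M. Many class I genes are polymorphic and exist in several copies, so counts of 1 entry are uncertain. Of 2 heavy chain entries read, 1 was under 1 FPKM in every library. The other, described as a BOLA class I alpha chain BL3-7-like and picked here after its values were seen, is ENSOARG00000013856 at chr20:27544969-27577813 on the plus strand. It stood at 35.2, 38.1 and 33.8 FPKM in Hulunbuir day 25 embryos and at 32.8, 11.5 and 13.6 FPKM in Ujumqin day 25 embryos. At day 16 it stood at 11.2, 12.4 and 15.1 FPKM in Hulunbuir embryos and at 27.2, 22.5 and 33.8 FPKM in Ujumqin embryos. All 3 Hulunbuir day 16 libraries lay below all 3 Ujumqin libraries, as they did for B2M, but within the Ujumqin group replicate 2 was the lowest for the heavy chain and the highest for B2M. The day 16 log2 change of the heavy chain was -1.18 ± 0.31 (SE). It is given with no test, because the entry was picked after its values were seen.

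The ratio of B2M to this heavy chain therefore varied most in the Ujumqin day 16 group. The ratio of FPKM values was 4.23, 4.31 and 4.14 in Hulunbuir day 25 embryos and 5.67, 13.3 and 11.3 in Ujumqin day 25 embryos. It was 3.87, 2.25 and 2.90 in Hulunbuir day 16 embryos and 18.2, 78.1 and 1.5 in Ujumqin day 16 embryos. The log2 age change of the heavy chain entry was 1.32 ± 0.31 (SE) in Hulunbuir and -0.41 ± 0.30 (SE) in Ujumqin embryos, again with no test. At day 25 Ujumqin replicate 1 stood apart from its group for the heavy chain and for MX1, an interferon-induced antiviral gene, at 47.5 FPKM beside 19.1 and 16.5 FPKM.

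Other heavy chains that pair with B2M without presenting ordinary peptides were counted as a list. Of 12 names, 5 were in the table and 4 were tested. At day 16, FCGRT, the neonatal Fc receptor, and MR1, which presents vitamin metabolites, were lower in Hulunbuir embryos by edgeR, and 2 did not pass. FCGRT averaged 16.0 ± 5.75 FPKM in Hulunbuir and 38.9 ± 23.0 FPKM in Ujumqin (SD, n = 3 each), with a log2 change of -1.28 ± 0.38 (SE). MR1 averaged 2.52 ± 0.946 FPKM in Hulunbuir and 5.21 ± 0.560 FPKM in Ujumqin (SD, n = 3 each), with a log2 change of -1.16 ± 0.26 (SE). Over all genes 16.8% were called between the breeds at day 16, in either direction. Neither call held in the fit to the 6 day 16 libraries alone, in which 0.0206% of all genes were called, or there with a replicate block.

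Several trophoblast genes varied with B2M across the Ujumqin day 16 libraries. Of 14 trophoblast genes in the table, 9 had the order of B2M there (replicate 2 over 1 over 3, with replicate 1 above every Hulunbuir day 16 library), beside 9.09% of all genes that passed the filter. PTGS2, which makes prostaglandins, stood at 4.40, 2.81 and 4.94 FPKM in Hulunbuir day 16 embryos and at 80.1, 174 and 1.34 FPKM in Ujumqin day 16 embryos. GATA3, a trophoblast transcription factor, stood at 10.3, 7.77 and 8.94 FPKM in Hulunbuir and at 24.2, 75.0 and 9.0 FPKM in Ujumqin embryos. PAG4, a pregnancy-associated glycoprotein of ruminant trophoblast, stood at 0.0772, 0.377 and 0.00841 FPKM in Hulunbuir and at 27.7, 102 and 0.0256 FPKM in Ujumqin embryos. For all 3 genes Ujumqin replicates 1 and 2 were above every Hulunbuir library, whereas replicate 3 lay below or among them. Of 19 entries described as pregnancy-associated glycoproteins, 17 had the same order. Of 12 trophoblast genes tested between the breeds at day 16, 5 were lower in Hulunbuir embryos by edgeR in the 12-library fit, in which 16.8% of all genes were called in either direction. In the 6 day 16 libraries alone edgeR called 0 of the 12, with 5 at an unadjusted p under 0.05, and with a replicate block there it called 1, beside 2.01% of all genes.

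Other trophoblast genes did not have that order. KRT8, an epithelial keratin, stood at 4247, 3153 and 1320 FPKM in Hulunbuir and at 3002, 2030 and 1384 FPKM in Ujumqin day 16 embryos. The summed level of the 14 trophoblast genes, mostly KRT8, ranged between 1719 and 5585 FPKM in Hulunbuir and between 1749 and 4029 FPKM in Ujumqin day 16 embryos. CDX2, a transcription factor of early trophoblast, stood at 36.4, 12.8 and 2.87 FPKM in Hulunbuir and at 13.1, 19.9 and 3.9 FPKM in Ujumqin embryos. The part of these genes in the B2M values was not tested.

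**Figure D2:**
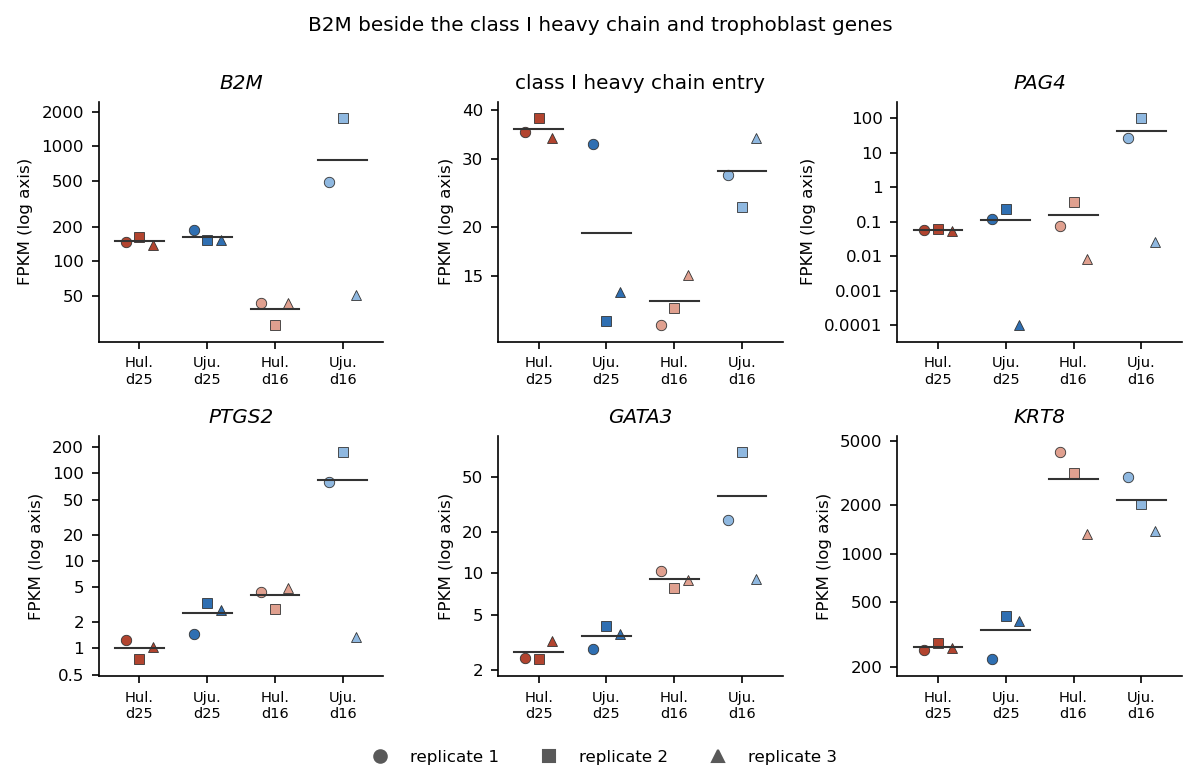
B2M, the class I heavy chain entry and 4 trophoblast genes in each library, with groups ordered as Hulunbuir (Hul.) and Ujumqin (Uju.) day 25, then day 16; the y axis is FPKM on a log scale, lines are group means, and 0.0001 FPKM stands for a count of 0. Ujumqin day 16 replicates 2 and 1 are the highest libraries for B2M, PAG4, PTGS2 and GATA3, but not for the heavy chain entry or KRT8.

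Markers of maternal uterus and of leukocytes gave a mixed picture. The endometrial markers PGR and ESR1, the steroid hormone receptors, were nearly absent, PGR at 0 counts in 12 and ESR1 at 0 counts in 11 of 12 libraries, and SERPINA14, a uterine milk protein, reached at most 0.15 FPKM. CTSL, a cathepsin on the endometrium list, stood at 9.25, 35.7 and 5.40 FPKM in Hulunbuir and at 157, 471 and 4.83 FPKM in Ujumqin day 16 embryos. The 12 endometrium genes summed to 127 to 159 FPKM in Hulunbuir and to 567 to 1165 FPKM in Ujumqin day 16 embryos, and 3 of them had the order of B2M. The Ujumqin sum was mostly S100G, IGFBP1 and CTSL, with means of 302.6, 213.1 and 210.9 FPKM. In Hulunbuir day 25 embryos S100G averaged 126.8 FPKM and IGFBP1 97.6 FPKM. The part of maternal tissue in these values was not tested. The pan-leukocyte gene PTPRC stood at 0.0808, 0.0171 and 0.337 FPKM in Ujumqin day 16 embryos, so it was lowest where B2M was highest, whereas AIF1, a macrophage gene, stood at 28.6, 98.2 and 1.48 FPKM there. The summed level of the 20 leukocyte genes was 68.3 to 103 FPKM in Hulunbuir and 106 to 207 FPKM in Ujumqin day 16 embryos. Of the 20, 4 had the order of B2M. This is 20.0% of the leukocyte and 25.0% of the endometrium genes, beside 9.09% of all genes that passed the filter. Of the listed genes, 15 leukocyte and 8 endometrium genes passed the filter.

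Genes with the profile most like that of B2M over the 12 libraries were CST3, SIGIRR, BLOC1S2, BCAT2 and ARF6. Their Pearson r with B2M on log2(FPKM + 1), among 8667 genes with a symbol and a mean FPKM of at least 5, lay between 0.948 and 0.959. These r values share libraries, depth and group structure and are descriptions. Within the day 25 libraries r ranged between -0.534 and 0.659, and within the day 16 libraries between 0.966 and 0.974. CST3, which encodes cystatin C, averaged 185 ± 71.6 FPKM in Hulunbuir and 839 ± 819.5 FPKM in Ujumqin day 16 embryos (SD, n = 3 each).

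TAP1, TAP2, PSMB8 and PSMB9 lie side by side in the MHC region of chromosome 20. TAP1 occupies chr20:7281659-7289687 on the minus strand, PSMB8 chr20:7273093-7280060 on the minus strand and PSMB9 chr20:7289441-7296754 on the plus strand. The TAP2 entry occupies chr20:7260803-7272764 on the minus strand. TAP1 and PSMB9 overlap by 247 bases on opposite strands, and the sources do not state that counting used strand, so reads of that stretch cannot be told apart.

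The peptide transporter rose with age in both breeds. TAP1 (ENSOARG00000007738), its first subunit, stood at 9.96, 8.4 and 8.03 FPKM in Hulunbuir day 25 embryos and at 5.06, 5.43 and 5.08 FPKM in Ujumqin day 25 embryos. At day 16 TAP1 stood at 5.2, 3.68 and 4.03 FPKM in Hulunbuir embryos and at 1.52, 1.71 and 1.51 FPKM in Ujumqin embryos. None of the 4 comparisons had overlapping libraries. The log2 change of TAP1 with age was 0.87 ± 0.20 (SE) in Hulunbuir embryos, with an adjusted p of 0.00537, and 1.85 ± 0.20 (SE) in Ujumqin embryos, with an adjusted p of 2.3e-05, both by edgeR.

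At day 16 TAP1 and B2M differed in opposite directions between the breeds. The log2 change of TAP1, Hulunbuir minus Ujumqin, was 1.37 ± 0.20 (SE), given as a description. CIITA was the third gene of the 9 without overlap at day 16, at counts of 14, 9 and 38 in Hulunbuir and 0, 0 and 8 in Ujumqin embryos. Over all genes that passed the filter, 13.2% were higher and 11.1% lower in Hulunbuir embryos without overlap in FPKM at day 16, and as this contrast chose the set, nothing is read from the 3.

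The TAP2 entry (ENSOARG00000007573), the other subunit of the transporter, also rose with age in both breeds. It stood at 6.91, 7.77 and 6.87 FPKM in Hulunbuir day 25 embryos and at 7.22, 5.34 and 5.37 FPKM in Ujumqin day 25 embryos. It stood at 2.53, 1.38 and 2.72 FPKM in Hulunbuir day 16 embryos and at 0.974, 0.439 and 1.61 FPKM in Ujumqin day 16 embryos. Each day 25 library lay above each day 16 library. The age change was 1.57 ± 0.34 (SE) in Hulunbuir embryos with an adjusted p of 0.00434 and 2.72 ± 0.36 (SE) in Ujumqin embryos with an adjusted p of 7.4e-05, both by edgeR.

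TAPBP (ENSOARG00000009391), which encodes tapasin, did not pass the age test in either breed. It lies at chr20:7571732-7581313 on the minus strand. It stood at 32.7, 32.9 and 32.3 FPKM in Hulunbuir day 25 embryos and at 41.8, 39.7 and 37.7 FPKM in Ujumqin day 25 embryos. It stood at 50.9, 47.9 and 28.7 FPKM in Hulunbuir day 16 embryos and at 43.8, 54.9 and 28.6 FPKM in Ujumqin day 16 embryos. Replicate 3 was the lowest library of both day 16 groups. The age change was -0.58 ± 0.29 (SE) in Hulunbuir embryos with an adjusted p of 0.134 by edgeR, and -0.85 with an adjusted p of 0.0168 without day 16 replicate 3. In Ujumqin embryos it was 0.03 ± 0.29 (SE) with an adjusted p of 0.937 by edgeR.

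The immunoproteasome subunits had higher values at day 25 than at day 16 in both breeds. PSMB8, PSMB9 and PSMB10 encode the inducible catalytic subunits that replace PSMB5, PSMB6 and PSMB7. PSMB8 (ENSOARG00000007622) stood at 3.28, 3.43 and 4.01 FPKM in Hulunbuir day 25 embryos and at 1.91, 2.36 and 2.02 FPKM in Ujumqin day 25 embryos. At day 16 it stood at 0.398, 0.133 and 0.291 FPKM in Hulunbuir and at 0.179, 0.167 and 0.311 FPKM in Ujumqin embryos. PSMB8 was at 1 FPKM or more in the 6 day 25 libraries and in 0 of the 6 day 16 libraries, so it passed the filter through day 25 and had to differ. A fit with no filter, which does not select on level, is therefore given for it. There its log2 age change was 3.56 ± 0.37 (SE) in Hulunbuir and 3.32 ± 0.37 (SE) in Ujumqin embryos, with an adjusted p of 3.5e-05 in Hulunbuir and 1.4e-05 in Ujumqin by edgeR.

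PSMB9 and PSMB10 also had higher values at day 25. PSMB9 (ENSOARG00000007866) stood at 9.61, 11.1 and 10.4 FPKM in Hulunbuir day 25 embryos and at 4.53, 3.12 and 3.68 FPKM in Ujumqin day 25 embryos. At day 16 PSMB9 stood at 0.619, 1.44 and 0.444 FPKM in Hulunbuir and at 1.13, 0.426 and 0.754 FPKM in Ujumqin embryos. No day 25 library overlapped a day 16 library. PSMB9 reached 1 FPKM in 2 of the 6 day 16 libraries and so passed the filter only with day 25. In the fit with no filter its log2 age change was 3.41 ± 0.53 (SE) in Hulunbuir and 2.32 ± 0.51 (SE) in Ujumqin embryos, with an adjusted p of 5.3e-04 in Hulunbuir and 0.00241 in Ujumqin by edgeR.

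PSMB10 (ENSOARG00000003243), at chr14:34756915-34759313 on the minus strand, is the inducible subunit outside the MHC region and the most abundant of them. It stood at 35.6, 37.5 and 36.7 FPKM in Hulunbuir day 25 embryos and at 36.9, 47.1 and 39.6 FPKM in Ujumqin day 25 embryos. At day 16 it stood at 10.5, 8.35 and 10.1 FPKM in Hulunbuir and at 10.5, 7.47 and 11.9 FPKM in Ujumqin embryos. Its age change was 1.77 ± 0.18 (SE) in Hulunbuir and 2.20 ± 0.18 (SE) in Ujumqin embryos, with an adjusted p of 6.2e-05 in Hulunbuir and 4.5e-06 in Ujumqin by edgeR.

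Set against the constitutive subunit each replaces, PSMB8 and PSMB10 stood higher at day 25 than at day 16. PSMB6 was not found by gene name, so no ratio was made for PSMB9. The FPKM of PSMB8 over that of PSMB5, the subunit it replaces, averaged 0.0803 ± 0.0112 in Hulunbuir day 25 and 0.0542 ± 0.00636 in Ujumqin day 25 embryos (SD, n = 3 each). The ratio averaged 0.00877 ± 0.00285 in Hulunbuir day 16 and 0.00733 ± 0.00259 in Ujumqin day 16 embryos (SD, n = 3 each). PSMB10 over PSMB7 averaged 0.111 ± 0.00444 in Hulunbuir day 25 and 0.141 ± 0.00598 in Ujumqin day 25 embryos (SD, n = 3 each). It averaged 0.0484 ± 0.00332 in Hulunbuir day 16 and 0.0506 ± 0.0107 in Ujumqin day 16 embryos (SD, n = 3 each). At day 25 the first ratio was higher and the second lower in every Hulunbuir library than in every Ujumqin library. These ratios are descriptions and need no scaling between libraries.

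**Figure D3:**
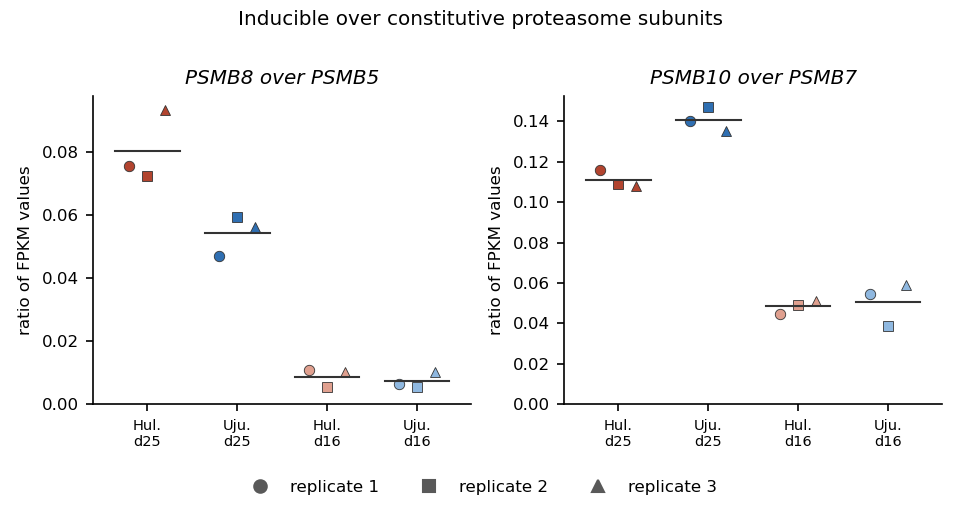
Ratio of FPKM values of an inducible proteasome subunit to the constitutive subunit it replaces, in each library on a linear axis from 0, with Hulunbuir (Hul.) left of Ujumqin (Uju.) embryos at day 25 and then at day 16; lines are group means. PSMB8 over PSMB5 averaged 0.0803 in Hulunbuir and 0.0542 in Ujumqin at day 25, against 0.00877 in Hulunbuir and 0.00733 in Ujumqin at day 16.

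Genes of the ordinary proteasome rose with age too, in Hulunbuir embryos depending on the fit. Of 14 constitutive subunits and maturation genes tested, 8 rose in Hulunbuir embryos with a median log2 change of 0.39, and 13 rose in Ujumqin embryos with a median of 0.73, with 0 lower in either breed by edgeR. This is 57.1% in Hulunbuir and 92.9% in Ujumqin embryos, beside 40.5% and 63.6% of all genes called in either direction. PSMA7, a structural subunit, averaged 381 ± 5.5 FPKM at day 25 and 217 ± 49 FPKM at day 16 in Hulunbuir embryos (SD, n = 3 each). In the fit with a replicate block to the 6 Hulunbuir libraries 1 of the 14 was called, or 7.14%, beside 31.3% of all genes. For Hulunbuir embryos limma on log2(FPKM + 1) called 14. Between breeds at day 25, 5 of the 14 were lower in Hulunbuir embryos with TMM, against 0 on log2(FPKM + 1). With TMM this is 35.7%, beside 16.7% of all genes called in either direction.

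Counted over the 6 genes other than B2M that passed the filter, 4 rose with age in Hulunbuir embryos and 4 in Ujumqin embryos by edgeR, TAP1, PSMB8, PSMB9 and PSMB10 in both. In Hulunbuir embryos 18.9% of all genes tested were higher and 21.6% lower at day 25, and in Ujumqin embryos 30.7% were higher and 32.9% lower. Of the 6, 3 (PSMB8, PSMB9 and CD74) reached the filter only with their day 25 libraries, so the counts describe these genes and support nothing on the set. The 2 age comparisons do not share libraries. Whether an age change differed between the breeds was not tested for these genes, since that contrast holds the day 16 breed difference.

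**Figure D4:**
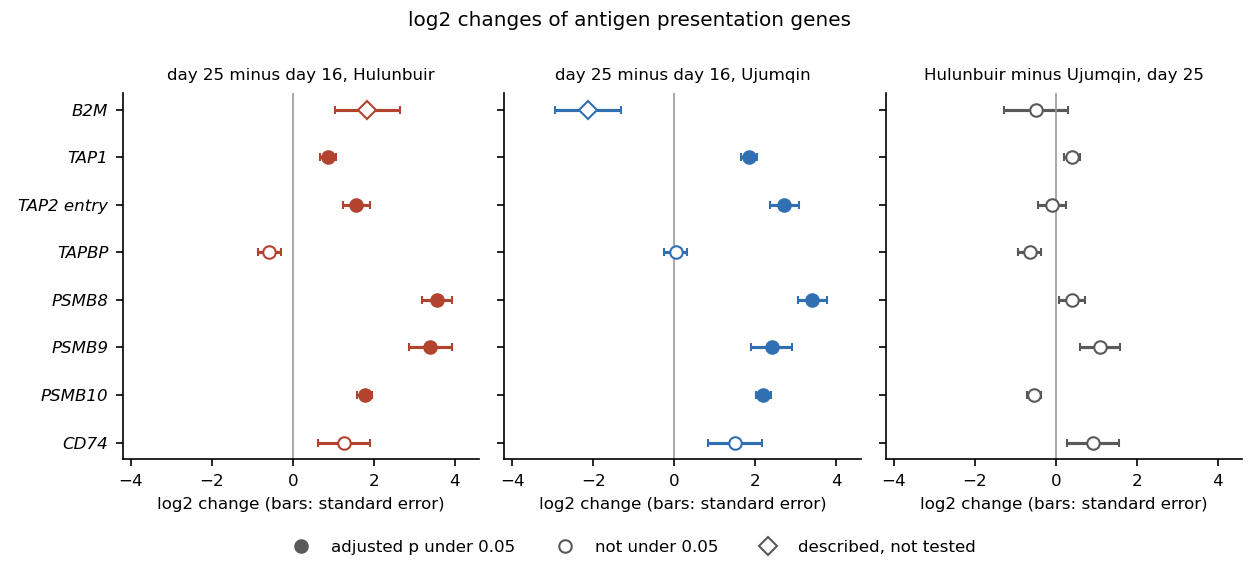
Log2 changes with standard errors for 7 genes and the TAP2 entry, from edgeR on counts of 12 libraries; panels from left to right give day 25 minus day 16 in Hulunbuir, the same in Ujumqin, and Hulunbuir minus Ujumqin at day 25. Filled circles passed an adjusted p of 0.05, open circles did not, and diamonds (B2M with age) were not tested. TAP1, the TAP2 entry, PSMB8, PSMB9 and PSMB10 are filled in both age panels and no point is filled in the breed panel. PSMB8, PSMB9 and CD74 reached the filter only with day 25 libraries.

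Between breeds at day 25, 0 of the 7 genes passed the test in the fit to 12 libraries, in which 16.7% of all genes did, and 3 had an unadjusted p under 0.05 in edgeR. DESeq2 called 1, PSMB10. This fit shares 1 spread with the uneven day 16 libraries. In an edgeR fit to the 6 day 25 libraries, 6 of the 7 were called: TAP1, PSMB8 and PSMB9 higher and B2M, PSMB10 and TAPBP lower in Hulunbuir embryos. In that fit 23.3% of all genes were higher and 22.7% lower. With total counts in place of TMM the 6 libraries gave 4 higher and 1 lower, and limma on log2(FPKM + 1) gave 3 higher and 0 lower, so the lower calls of B2M and PSMB10 depend on the scaling.

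PSMB9 and TAP1 kept the same direction on both scales at day 25. PSMB9 averaged 10.4 ± 0.763 FPKM in Hulunbuir and 3.78 ± 0.713 FPKM in Ujumqin day 25 embryos (SD, n = 3 each), which is 2.75-fold higher in Hulunbuir. Its log2 change was 1.09 ± 0.49 (SE) with an adjusted p of 0.145 in 12 libraries and 1.13 ± 0.18 (SE) with an adjusted p of 0.00142 in 6 libraries, both by edgeR. TAP1 averaged 8.80 ± 1.03 FPKM in Hulunbuir and 5.19 ± 0.205 FPKM in Ujumqin embryos (SD, n = 3 each), with log2 changes of 0.39 ± 0.20 (SE) in 12 libraries and 0.43 ± 0.13 (SE) in 6. The 3 Hulunbuir libraries lay above the 3 Ujumqin libraries for TAP1, PSMB8, PSMB9 and CD74.

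B2M, PSMB10 and TAPBP were lower in Hulunbuir day 25 embryos on the TMM scale. Their log2 changes in the 6 libraries were -0.44 ± 0.09 for B2M, -0.50 ± 0.12 for PSMB10 and -0.61 ± 0.07 for TAPBP (SE), and their adjusted p by edgeR were 0.00473 for B2M, 0.00992 for PSMB10 and 2.1e-04 for TAPBP. With total counts alone the change was -0.13 for B2M, -0.18 for PSMB10 and -0.29 for TAPBP, and of these TAPBP was called. The FPKM values of B2M and PSMB10 overlapped between the breeds, and those of TAPBP did not. Red blood cell genes differed between the same libraries: 10 of 10 were higher in Hulunbuir day 25 embryos by edgeR, and they summed to 16338 to 19281 FPKM in Hulunbuir and to 1948.5 to 2448 FPKM in Ujumqin embryos. The part of red blood cells in the breed differences was not tested.

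CD74 (ENSOARG00000007229), the invariant chain of class II, was low throughout. It lies at chr5:59256119-59263326 on the minus strand. It stood at 2.79, 1.92 and 2.60 FPKM in Hulunbuir day 25 embryos and at 0.573, 1.33 and 1.03 FPKM in Ujumqin day 25 embryos. It stood at 2.03, 0.309 and 0.409 FPKM in Hulunbuir day 16 embryos and at 0.491, 0.270 and 0.402 FPKM in Ujumqin day 16 embryos. Hulunbuir day 16 replicate 1, at 140 counts, reached the level of the Hulunbuir day 25 libraries, and CD74 passed the filter only with day 25. The age change was 1.26 ± 0.65 (SE) in Hulunbuir embryos with an adjusted p of 0.146 by edgeR, and 2.60 without that library. No p is given for the change of 2.60, because the filter selected CD74 on its day 25 level. In Ujumqin embryos it was 1.49 ± 0.67 (SE) with an adjusted p of 0.0729 by edgeR.

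Class II molecules were nearly undetected beside CD74. Of 12 entries described as class II antigen chains, 11 were under 1 FPKM in every library and 3 had 0 counts in every library. HLA-DMA, which helps to load class II molecules, reached 3.79 FPKM. Of 15 leukocyte genes tested between the breeds at day 25, 0 were higher and 1, CD68, was lower in Hulunbuir embryos by edgeR. This is 6.67%, beside 16.7% of all genes in the 12-library fit. In the 6 day 25 libraries 6 were higher and 1 lower. This is 46.7%, near the 46.0% of all genes called in that fit, and so is not a result about the list. Of the 15, 7 reached the filter only with day 25, some mainly through Hulunbuir libraries, so the higher calls may be partly set by the filter. TYROBP averaged 1.92 FPKM in Hulunbuir and 0.56 FPKM in Ujumqin day 25 embryos, and CD163 1.06 and 0.129 FPKM. The genes went different ways: CD68, a macrophage gene, averaged 17.6 ± 1.92 FPKM in Hulunbuir and 31.8 ± 2.77 FPKM in Ujumqin, and AIF1 averaged 4.77 ± 1.39 FPKM in Hulunbuir and 4.79 ± 1.23 FPKM in Ujumqin day 25 embryos (SD, n = 3 each). C1QB, a complement gene of macrophages, stood at 26.1, 26.7 and 22.3 FPKM in Hulunbuir day 25 and at 4.25, 8.93 and 8.86 FPKM in Ujumqin day 25 embryos, and was at 0 counts in 5 of the 6 day 16 libraries. Its breed difference at day 25 did not pass the test, with an adjusted p of 0.161 by edgeR. The 20 leukocyte genes summed to 168 to 173 FPKM in Hulunbuir and to 116 to 134 FPKM in Ujumqin day 25 embryos. PTPRC was at 0 counts in 2 Ujumqin day 25 libraries. The part of leukocytes in the values of CD74, PSMB8 and PSMB9 was not tested.

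Both MHC transactivators were at the edge of detection. NLRC5 (ENSOARG00000018834), the class I transactivator at chr14:24477048-24533394 on the plus strand, had 15, 12 and 17 counts in Hulunbuir day 25 and 2, 13 and 16 counts in Ujumqin day 25 embryos. It had 0, 0 and 7 counts in Hulunbuir day 16 and 7, 4 and 0 counts in Ujumqin day 16 embryos. CIITA (ENSOARG00000006106), the class II transactivator at chr24:9540624-9594737 on the plus strand, had 9, 19 and 0 counts in Hulunbuir day 25 embryos and 0 counts in each Ujumqin day 25 library. A count of 0 allows up to 3 counts, or 0.0541 to 0.0985 CPM (counts scaled to library size), and covers counting error only. Neither gene reached the filter, so neither was tested. The NLRC5 counts of the Hulunbuir day 25 libraries lay above those of the Hulunbuir day 16 libraries, and those of the Ujumqin ages overlapped.

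The wider loading machinery did not rise as a block. Of 11 genes on that list, 3 rose and 6 fell with age in Hulunbuir embryos, and 2 rose and 5 fell in Ujumqin embryos by edgeR, with median log2 changes of -1.06 and -0.79. In Hulunbuir embryos this is 81.8%, beside 40.5% of all genes, but part of it is set by the filter, as given below. In Ujumqin embryos it is 63.6%, the same as over all genes, and so is not a result about the list there. PSME1 and PSME2, the activator subunits that open the proteasome, rose in both breeds, PSME2 by 1.43 ± 0.23 in Hulunbuir and 1.42 ± 0.23 in Ujumqin on the log2 scale (SE). The chaperones CALR and PDIA3 fell in both breeds. CALR, calreticulin, averaged 780.2 ± 12 FPKM at day 25 and 1685 ± 480.1 FPKM at day 16 in Hulunbuir embryos (SD, n = 3 each). Of the 11, 1 reached the filter only with day 25 and 2, LNPEP among them, only with day 16, so these had to differ. In the fit with no filter 3 rose and 5 fell in Hulunbuir, and 2 rose and 5 fell in Ujumqin embryos by edgeR. This is 72.7% and 63.6%, beside 25.9% and 43.8% of all genes. Those all-gene shares run over 21446 genes, many at low levels, in place of 14595. LNPEP, a peptide-trimming enzyme, fell by 3.03 on the log2 scale in Hulunbuir and by 3.79 in Ujumqin embryos.

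Many interferon-stimulated genes had higher values at day 25 than at day 16. Of 20 such genes that passed the filter, 10 did so only with day 25 libraries and had to differ, so no count over the 20 is given. In the fit with no filter 23 were tested, of which 15 rose and 1 fell in Hulunbuir embryos and 15 rose and 4 fell in Ujumqin embryos by edgeR. In that fit 25.9% of all genes were called in either direction in Hulunbuir and 43.8% in Ujumqin embryos. These shares run over 21446 genes, many at low levels. Over the 14595 genes that passed the filter they were 40.5% and 63.6%. ISG15, a ubiquitin-like modifier, stood at 187, 208 and 205 FPKM in Hulunbuir day 25 and at 161, 170 and 150.5 FPKM in Ujumqin day 25 embryos. At day 16 ISG15 stood at 0.571, 0.414 and 0.138 FPKM in Hulunbuir and at 0.794, 2.11 and 3.50 FPKM in Ujumqin embryos. CXCL10, a chemokine induced by interferon, stood at 22.8, 15.6 and 13.8 FPKM in Hulunbuir day 25 and at 3.00, 5.01 and 3.34 FPKM in Ujumqin day 25 embryos, and at 0 counts in all 6 day 16 libraries, so it reached the filter through day 25 alone. Its breed difference at day 25 passed the test, with a log2 change of 1.81 ± 0.45 (SE) and an adjusted p of 0.0336 by edgeR.

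Interferon signalling genes moved in both directions. Of 14 tested, 6 rose and 2 fell with age in Hulunbuir embryos, and 3 rose and 5 fell in Ujumqin embryos by edgeR. This is 57.1% in each breed, beside 40.5% of all genes in Hulunbuir and 63.6% in Ujumqin embryos. Of the 14, 1 reached the filter only with day 25. IRF1 and IRF9, transcription factors of the interferon response, rose in both breeds. IRF9 averaged 25.8 ± 2.43 FPKM at day 25 and 5.55 ± 2.07 FPKM at day 16 in Hulunbuir embryos, and 28.7 ± 2.99 FPKM at day 25 and 4.26 ± 0.581 FPKM at day 16 in Ujumqin embryos (SD, n = 3 each). IFNAR1, a chain of the type I interferon receptor, fell in both breeds, by 1.76 in Hulunbuir and by 2.35 in Ujumqin on the log2 scale.

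Between breeds at day 16, the day at which B2M differed, 12 of 83 partner genes on the lists passed the test, 3 higher and 9 lower in Hulunbuir embryos by edgeR. This is 14.5%, near the 16.8% over all genes, and so is not a result about the lists. The called genes are given as values. ISG15 and IFIH1, an RNA sensor, were lower, with log2 changes of -2.47 ± 0.49 for ISG15 and -2.02 ± 0.38 for IFIH1 (SE). JAK1 and IFNGR2 of the interferon signalling list and NFKBIA and TNFAIP3, inhibitors of NF-kB, were lower as well. RFXANK, a subunit of the complex that binds MHC promoters, was higher, with a log2 change of 0.52 ± 0.14 (SE). The labels name no pairing, but same-numbered day 16 libraries deviated together, so fits with a replicate block are given as well. With the block 10 partner genes were called in 12 libraries and 0 in the 6 day 16 libraries. Without the block the 6 libraries gave 0 as well, with 13 at an unadjusted p under 0.05, and called 3 of all 14595 genes.

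Promoter-binding partners of NLRC5 and CIITA were well expressed, unlike the transactivators. Of 8 genes on the list, 3 rose with age in Hulunbuir embryos, and 4 rose and 1 fell in Ujumqin embryos by edgeR. This is 37.5% in Hulunbuir and 62.5% in Ujumqin embryos. It is near the 40.5% and 63.6% over all genes, and so is not a result about the list. RFXANK averaged 105.8 ± 3.41 FPKM in Hulunbuir and 163 ± 14 FPKM in Ujumqin day 25 embryos, and 58 ± 9.24 FPKM in Hulunbuir and 38.4 ± 4.1 FPKM in Ujumqin day 16 embryos (SD, n = 3 each). It was lower in Hulunbuir embryos at day 25, with a log2 change of -1.0 ± 0.14 (SE) and an adjusted p of 0.0026 by edgeR, and higher at day 16.

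Of 4 genes on the class II pathway list that passed the filter, 2 did so only with day 25 and 1 only with day 16. These had to differ, so no count over the 4 is given. In the fit with no filter 9 were tested. Of the 9, 1 rose and 1 fell with age in Hulunbuir embryos, and 2 rose and 2 fell in Ujumqin embryos by edgeR. This is 22.2% and 44.4%, near the 25.9% and 43.8% over all genes there, and so is not a result about the list. CTSS, a cathepsin that trims the invariant chain, rose in both breeds in the fit with the filter. Its log2 change there was 3.32 ± 0.71 (SE) in Hulunbuir and 2.76 ± 0.69 (SE) in Ujumqin embryos. IFI30, a lysosomal thiol reductase, fell in both breeds in that fit. Of 8 NF-kB genes, 1 of which reached the filter only with day 16, 1 rose and 0 fell in Hulunbuir embryos, and 2 rose and 3 fell in Ujumqin embryos. This is 12.5% in Hulunbuir and 62.5% in Ujumqin embryos, beside 40.5% and 63.6% of all genes.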

How the data were processed

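RNA-seq of 12 sheep embryo libraries was used, 3 in each of 4 groups. The submitters' processing notes name cutadapt 1.9, FastQC and the build Oar_v3.1. Which programs aligned reads, counted them and made FPKM, and whether counting used strand, is not given in the sources used here. The deposited count columns hold whole numbers per gene, not scaled between libraries. The authors' deposited FPKM columns are scaled to gene length and library size; a count of 0 is written as 0.0001. Names came from the deposited table and, for 1300 IDs without one there, from RefSeq (ARS-UI_Ramb_v3.0); no sequence was used.

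Counts were fitted with edgeR 4.0.16 in R 4.3.3, on genes reaching 1 FPKM in 3 or more of 12 libraries, with TMM, quasi-likelihood with 4 group means, two-sided tests, Benjamini-Hochberg over 14595 genes, threshold 0.05. Standard errors come from the F statistic and the log2 change. The fit was tested on simulated data. Alternatives were DESeq2 1.42.0, its size factors, limma 3.58.1 on log2(FPKM + 1) and log2(FPKM + 0.1), voom, no filter, replicate blocks, 6 libraries alone (also with total counts in place of TMM), rescaled FPKM and leaving out each library.

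The members and lists were chosen with earlier results of these data known. Day 16 breed values of the members, and B2M between ages, have no test, so age counts run over 6 genes. No p is given for the heavy chain entry. Named genes were all members, on each list up to 2 called genes per direction and comparison and 2 uncalled abundant ones, the 5 genes most like B2M, and defining markers; the heavy chain entry, the class II and glycoprotein entries, KRT8, PAG4, PTGS2, AIF1, CTSL, C1QB and MX1 were named after their values were seen. Same-numbered libraries deviated together at day 16 (r of 0.144, 0.293 and 0.371 over genes). In the other comparisons r lay between -0.054 and 0.079. The labels name no pairing and libraries with unlike numbers were not compared, so a pairing at day 16 is not established. Genes that reached the filter only with 1 age are counted beside the lists, and a fit with no filter is given where they decide an age count. Floors of 3 counts cover counting error only.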

Additional observations from a re-analysis of the deposited data

Results flagged for a closer look

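For 10 partner genes picked by the naming rule the breed difference changed with age, by edgeR's test of the breed by age interaction over 12 libraries. Of all 83 partner genes 12 were called, 14.5%, beside 19.2% of all genes, so the calls are no more frequent than over all genes. The rule picks genes called in comparisons that include breed at day 16, which is part of the interaction, and 0 of the 83 were called between breeds in the 6 day 16 libraries. Each value is the log2 breed difference (Hulunbuir minus Ujumqin) at day 25 minus that at day 16. ISG15 gave 2.42 (adjusted p 0.0209) and IFIH1 gave 1.82 (adjusted p 0.0322), both interferon-stimulated. IFITM3, an antiviral membrane protein, gave -1.58 (adjusted p 0.0149) and SAMHD1, a nucleotide hydrolase, gave 0.73 (adjusted p 0.0134). JAK1, a kinase of interferon receptors, gave 1.59 (adjusted p 0.0138). RFXANK gave -1.52 (adjusted p 0.00129), with breed differences of -1.0 at day 25 and 0.52 at day 16. In the NF-kB list NFKB2 gave -1.05 (adjusted p 0.0106), NFKBIA 0.88 (adjusted p 0.0249) and TNFAIP3 1.84 (adjusted p 0.0446). The proteasome subunit PSMA3 gave -0.61 (adjusted p 0.0423). The day 16 part of these differences shares the libraries in which B2M was uneven, and their cause was not tested.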

How the results depend on the processing

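The count of the 7 genes called between breeds at day 25, 0 in the 12-library fit, was 6 with voom, 6 in the 6 libraries, 6 with a replicate block in the 6 libraries, 5 in the 6 libraries with total counts, 3 with limma on log2(FPKM + 1), 3 on rescaled FPKM, 2 on log2(FPKM + 0.1) and 1 with DESeq2; leaving out each library gave 0 to 0. A fit to 6 libraries uses only the day 25 spread; for the others the cause was not tested. The rescaled FPKM and total-count fits were chosen after seeing the data. Age counts were 4 to 5 in Hulunbuir and 4 to 4 in Ujumqin embryos when each library was left out, and the block changed neither count of 4. In Hulunbuir embryos limma called 5 at either pseudocount and 4 higher and 1 lower on rescaled FPKM; in Ujumqin embryos DESeq2 and the 6 libraries called 5. Partner genes called at day 16, 12 in the main result, were 1 with voom, 0 in the 6 libraries and 0 with a replicate block in them, and 10 to 16 when each library was left out. The 3 genes without overlap at day 16 stayed 3 to 3. TAPBP with age in Ujumqin embryos, 0.03, turned to -0.05 without the filter, -0.04 with limma at either pseudocount and -0.40 on rescaled FPKM; leaving out libraries gave -0.22 to 0.29. The cause was not tested. Day 16 spread limits every comparison that uses those libraries, and depth limits NLRC5, CIITA and the class II chains.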
